A study of Mus musculus with 12 samples.

Results

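The genes of cellular oxygen sensing were examined in dorsal root ganglia (DRG), the clusters of sensory neurons beside the spinal cord. The 10 member genes comprised 3 prolyl hydroxylases (Egln1, Egln2, Egln3), 3 alpha subunits of the hypoxia-inducible factor HIF (Hif1a, Epas1, Hif3a), their common partner Arnt, the asparaginyl hydroxylase Hif1an, the ubiquitin ligase component Vhl and the target gene Vegfa. The members were chosen by gene name with an earlier comparison of DKO and Nf2 mice already known, and all 10 were found among the 49315 genes of the count table. Their genotype differences are therefore given as a description, with no test.

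The tissue came from 12 mice aged 10 months, 1 library per mouse from 8 pooled DRG. Of these, 6 carried Postn-Cre(+) with Nf2 flox/flox (Nf2 mice) and 6 carried the same alleles together with Fak1 flox/flox (DKO mice). The Cre is driven by the Periostin promoter. By label, males and females numbered 3 each within a genotype. Fak is annotated as Ptk2 and encodes focal adhesion kinase. All 12 mice thus shared the Cre and the loss of Nf2, no wild-type mouse was part of the series, and the study places that loss in Schwann cells and their precursors, whereas RNA was taken from whole ganglia.

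The prolyl hydroxylases use oxygen to hydroxylate HIF alpha subunits, which are then bound by VHL and degraded. When oxygen is short, the alpha subunits persist, pair with ARNT and activate genes of glucose uptake, glycolysis, vessel growth and red cell formation. Egln1 and Egln3 are themselves known HIF target genes. This control acts mainly on protein stability, which RNA counts do not measure.

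The core hypoxia response element, the short sequence that HIF binds, was searched as ACGTG and GCGTG on both strands in RefSeq promoter windows of 300 bases, 250 before and 50 after each start (GRCm38.p6). CACGTG, which many other factors bind, contains ACGTG on both strands. Windows were found for 9 of the 10 members (11 windows), and Epas1 had none. A match lay in 8 windows belonging to 7 members, while the windows of Vhl and Hif1an held none. For Vegfa the window at the start of the gene span held no match, and the match lay in another window inside the gene. The Hif1a window, from 73907617, also lay inside its gene, which begins at 73901375. Of all 32851 windows of this length, 19.6% held ACGTG, 32.4% held GCGTG and 43.8% held either. The letters around the single ACGTG of Egln1 and of Egln3 are shown because these are the hydroxylase genes known to respond to HIF. Capitals mark the element. The 25 bases shown are at chr8:124949308-124949332 for Egln1 and chr12:54204089-54204113 for Egln3, both on the minus strand of GRCm38. The elements begin 68 and 229 bases before the RefSeq start. By the gene spans used here, the Egln1 element lay inside the gene, whose first base is 124949324. The Egln3 element lay before the gene, whose first base is 54203860. A match is a description of the letters and not evidence of binding.
Egln1: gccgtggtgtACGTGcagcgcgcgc
Egln3: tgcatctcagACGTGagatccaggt

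Total counts ranged from 21129191 to 41250329 per mouse, and the members had between 95 and 4992 counts in a mouse. Ptk2 was at 69.95 ± 3.60 CPM (counts scaled to the library total; SD, n = 6) in Nf2 and 64.02 ± 10.4 in DKO mice (adjusted p = 0.529, edgeR's quasi-likelihood test). Whole-gene counts of a mixed tissue also cover exons outside the deleted part, so they do not check the deletion. The library of mouse 702, labelled male, went against its label, with 496 CPM of Xist and 0.525 CPM of Ddx3y. Mitochondrial genes took 4.45% of the counts of Nf2 mouse 649 and 5.60% of those of DKO mouse 887, against 1.99 to 3.15% in the other 10 mice. Defining markers of sensory neurons and Schwann cells were abundant in all mice, with summed levels of 9140 to 12000 CPM and 8160 to 11800 CPM.

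Egln1, which encodes PHD2, the main oxygen sensor of most cells, had the largest genotype difference among the members relative to its standard error. Egln1 was at 144, 137, 133, 149, 134 and 135 CPM in Nf2 mice 649, 702, 884, 918, 1048 and 1049. It was at 101, 89.2, 104, 95.5, 109 and 92.5 CPM in DKO mice 885, 886, 887, 914, 915 and 917. Every DKO mouse was below every Nf2 mouse. The mean was 138.7 ± 6.30 CPM in Nf2 and 98.59 ± 7.55 in DKO mice (SD, n = 6 each), 28.9% lower, for a log2 fold change of -0.51 ± 0.06 (SE). The gene (ENSMUSG00000031987) spans chr8:124908587-124949324 on the minus strand of GRCm38.

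In the fit across all 18295 genes tested, 172 genes (0.940%) passed an adjusted p of 0.05, and 104 (0.568%) passed with lower levels in DKO mice. The genotypes did not overlap in CPM for 356 genes (1.95%). Egln1 was the only 1 of the 10 members past that threshold and the only 1 without overlap. Nothing is read from these counts, since the members were proposed with this contrast known.

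The other prolyl hydroxylases overlapped between genotypes. Egln2, encoding PHD1, was at 60.7, 87.4, 89.2, 88.1, 86.6 and 85.5 CPM in the Nf2 mice in the order above. It was at 86.0, 87.3, 63.7, 84.3, 90.8 and 89.7 CPM in the DKO mice. Mouse 649 and mouse 887, the libraries with the highest mitochondrial shares, were the lowest of their genotypes, and the other 10 mice lay between 84.3 and 90.8 CPM. The log2 fold change of Egln2 was -0.01 ± 0.10 (SE). Egln3, encoding PHD3, was at 4.86, 7.28, 8.64, 8.28, 8.18 and 6.80 CPM in Nf2 mice and at 6.83, 11.3, 5.58, 7.54, 7.99 and 8.98 CPM in DKO mice. Again 649 and 887 were lowest, and DKO mouse 886 was highest, with a log2 fold change of 0.11 ± 0.17.

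Per length, the 3 hydroxylases together amounted to 71.0 ± 4.06 CPM per kb of exon in Nf2 and 60.3 ± 3.84 in DKO mice (SD, n = 6). Egln1 contributed 54.5 ± 4.29% of that sum in Nf2 and 45.6 ± 4.52% in DKO mice. Egln2 contributed 41.6 ± 3.79% and 49.4 ± 3.70%. By this measure Egln1 was on average the larger share in Nf2 mice and Egln2 in DKO mice. The ranges of the Egln1 share (51.4 to 63.0% and 41.2 to 53.9%) overlapped. Egln2 itself was at nearly the same mean in Nf2 (82.92 CPM) and DKO mice (83.62 CPM), so its share rose because Egln1 was lower. In CPM, without the length, Egln1 was above Egln2 in every mouse.

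**Figure D1:**
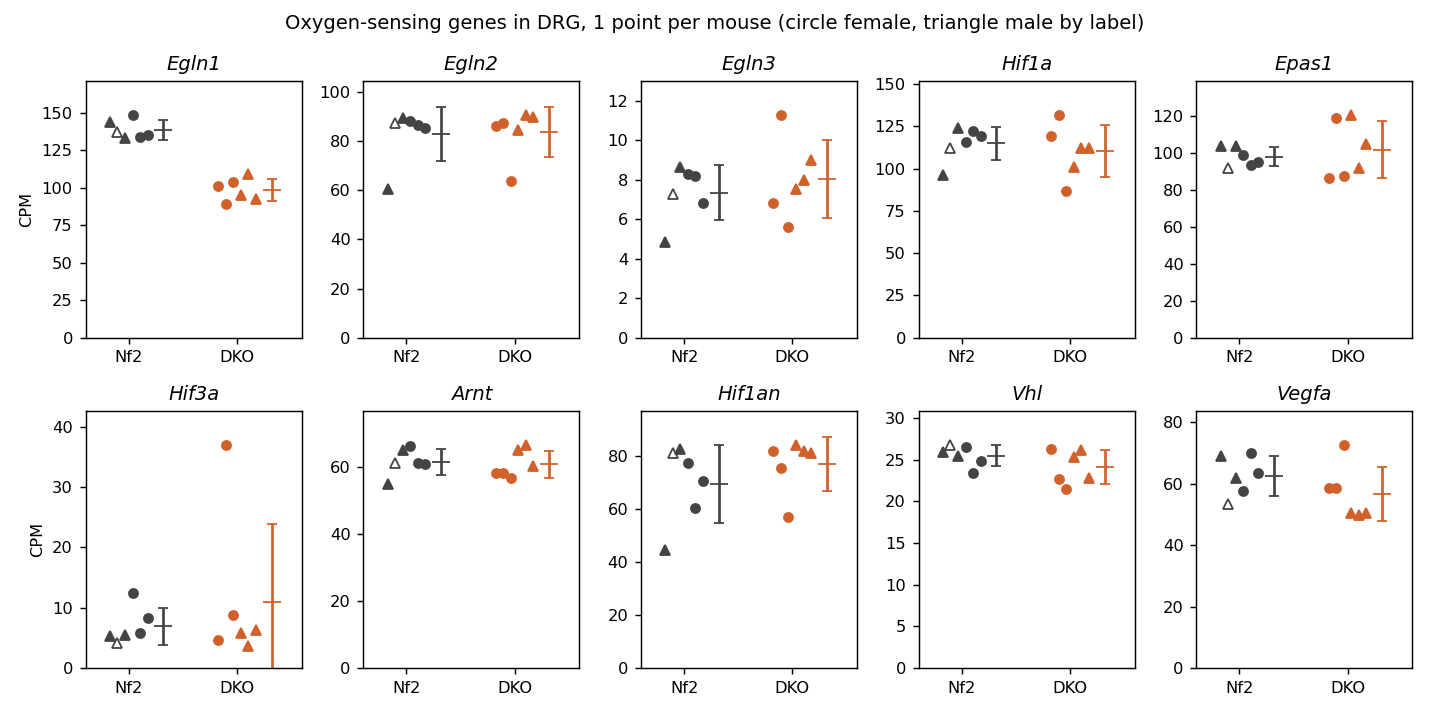
CPM (y axis, from 0, a separate scale per gene) of the 10 members in 6 Nf2 (grey) and 6 DKO mice (orange); each point is 1 mouse, the open triangle is mouse 702, and bars give mean ± SD (the lower bar of Hif3a in DKO is clipped at 0). Egln1 is the panel in which the genotypes separate, at 133 to 149 against 89.2 to 109 CPM.

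The HIF alpha subunits overlapped between genotypes. Hif1a, the broadly expressed subunit, was at 96.5, 112, 124, 116, 122 and 119 CPM in Nf2 and at 119, 132, 86.9, 101, 112 and 112 CPM in DKO mice. Mouse 649 and mouse 887 were again the lowest of their genotypes, and the log2 fold change was -0.08 ± 0.09 (SE). Epas1, which encodes HIF2α and is prominent in endothelial cells, ranged from 92.2 to 104 CPM in Nf2 and from 86.6 to 121 CPM in DKO mice. The DKO mice lay both above and below the Nf2 mice, and the log2 fold change of Epas1 was 0.03 ± 0.09.

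Hif3a, whose splice forms can restrain the other subunits, was the most variable member, with a 10.0-fold span between the lowest and highest mouse. It was at 5.32, 4.09, 5.53, 12.4, 5.79 and 8.22 CPM in Nf2 and at 4.55, 37.0, 8.80, 5.72, 3.68 and 6.30 CPM in DKO mice. Mouse 886 stood alone at 37.0 CPM, and the remaining DKO mice lay within or just below the Nf2 range. The log2 fold change was 0.66 ± 0.53 (SE) with all mice and -0.27 without mouse 886.

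Several genes were high in the same mouse. Zbtb16, Fkbp5, Map3k6, Tsc22d3 and Per1 were picked after their values were seen, and of these Fkbp5, Tsc22d3, Zbtb16 and Per1 are known to be induced by glucocorticoid hormones. In mouse 886 Fkbp5 was at 146 CPM and Zbtb16 at 59.9 CPM, while the next highest mice were at 65.0 and 15.9 CPM. Tsc22d3 was at 452 CPM and Map3k6 at 28.2 CPM in mouse 886, with the next highest mice at 267 and 9.01 CPM. Per1 was at 102 CPM, and mouse 649 followed at 79.0 CPM. Why these genes were high in mouse 886 was not tested.

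**Figure D2:**
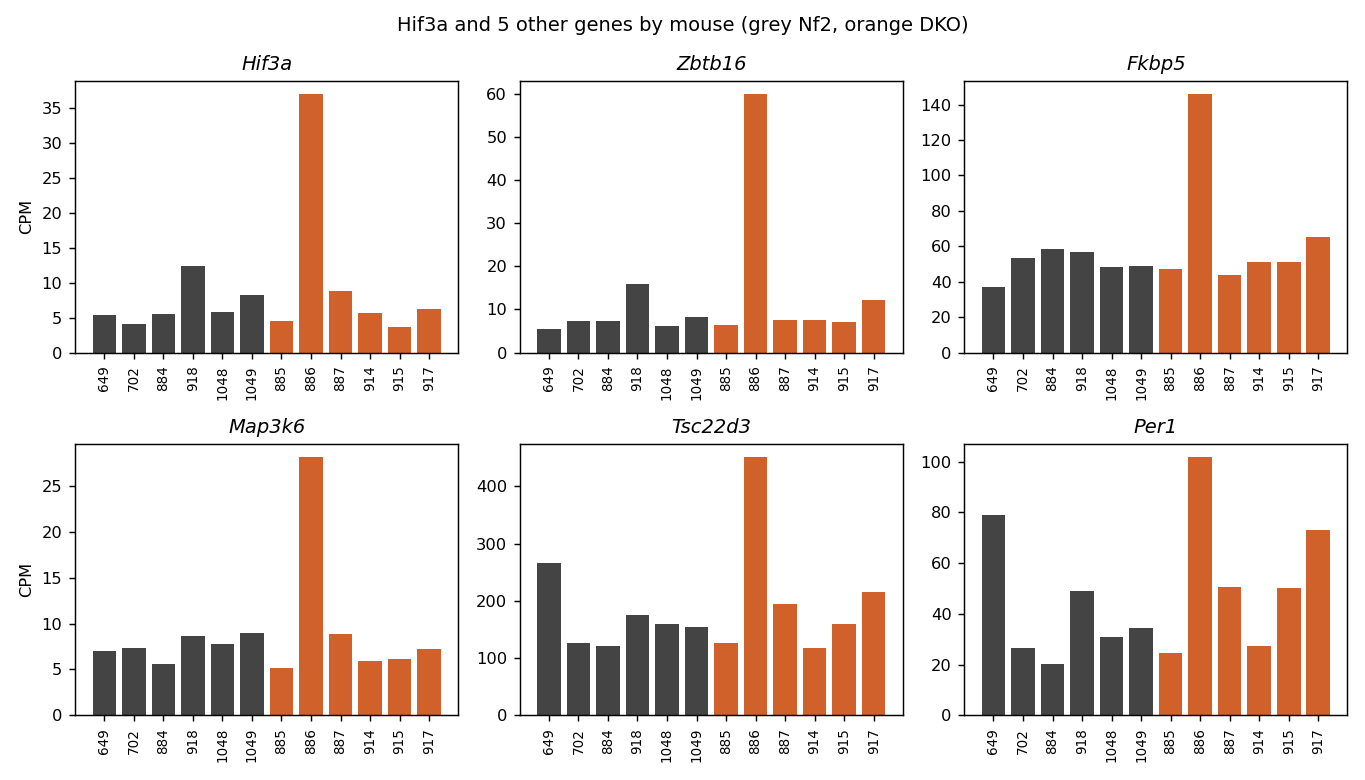
CPM (y axis, from 0) of Hif3a and 5 genes picked after their values were seen, as 1 bar per mouse (x axis: mouse number; grey Nf2, orange DKO). Mouse 886 is the highest bar in every panel, with Hif3a at 37.0 CPM and Fkbp5 at 146 CPM.

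The partner subunit and the 2 regulators of HIF overlapped as well. Arnt, the beta subunit shared by the HIF complexes, was at 61.48 ± 3.98 CPM in Nf2 and 60.8 ± 4.05 in DKO mice (SD, n = 6), with a log2 fold change of -0.04 ± 0.06 (SE). Vhl, which marks hydroxylated HIF for destruction, was at 25.46 ± 1.25 and 24.14 ± 2.07 CPM, with a log2 fold change of -0.10 ± 0.07. Hif1an, encoding FIH, which blocks coactivator binding, was at 44.6, 81.4, 82.7, 77.4, 60.3 and 70.8 CPM in Nf2 mice and at 81.9, 75.7, 57.0, 84.4, 82.1 and 81.3 CPM in DKO mice. Mouse 649 and mouse 887 were once more lowest, and the log2 fold change of Hif1an was 0.13 ± 0.14.

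Vegfa, the vessel growth factor and, like Egln1 and Egln3, a known HIF target, was at 68.9, 53.4, 62.0, 57.5, 69.9 and 63.5 CPM in Nf2 mice. It was at 58.6, 58.5, 72.7, 50.6, 49.7 and 50.3 CPM in DKO mice. The highest mouse of all was DKO mouse 887, and the 3 lowest were the DKO mice labelled male. The log2 fold change of Vegfa was -0.16 ± 0.10 (SE) with all mice and -0.26 without mouse 887.

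Over the 10 members the median log2 fold change was -0.021, with 6 below and 4 above 0, beside a median of 0.005 over all genes tested. Leaving Hif3a aside, the 8 members that did not pass lay between -0.16 and 0.13.

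None of 10 lists of cell type markers passed after adjustment, and the 3 with the smallest p and skeletal muscle are given here. The summed level of 9 macrophage markers ranged from 182 to 271 CPM in Nf2 and from 156 to 203 CPM in DKO mice, with 8 of 9 genes lower in DKO (exact permutation test, two-sided, p = 0.00866, adjusted over 10 lists 0.0649). The sum of 4 satellite glia markers ranged from 3850 to 5780 CPM and from 2940 to 4330 CPM (exact p = 0.0195, adjusted 0.0649), 2 of 4 lower. The sum of 10 endothelial markers, all with higher levels in DKO, ranged from 134 to 197 CPM and from 165 to 289 CPM (exact p = 0.0195, adjusted 0.0649). The sum of 10 skeletal muscle markers, all with lower levels in DKO, ranged from 13.0 to 901 CPM and from 17.3 to 298 CPM (exact p = 0.158, adjusted 0.395). No marker of these 4 lists was at 0 in any mouse. The lists were also compared by the mean log2(CPM + 1) of their genes in place of the sum. The adjusted p was then 0.206 for macrophage, 0.26 for satellite glia, 0.152 for endothelial and 0.308 for muscle markers (exact permutation test). In edgeR's test of single genes, 1 of the 9 macrophage markers passed, with lower levels in DKO mice. The study itself reports weaker macrophage and monocyte signatures in DKO ganglia, and significantly less staining for a macrophage marker. That the macrophage list did not pass therefore does not show equal macrophage content in both genotypes.

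The difference in Egln1 was set beside these levels. Its log2 fold change was -0.52 with the muscle level as a covariate, -0.43 with the endothelial level and -0.47 with the macrophage level, the last an alternative chosen after seeing the data. Egln1 stayed past the threshold with the muscle and endothelial levels but not with the macrophage level. Over all genes 102, 24 and 6 passed in these fits, against 172 in the main fit. The satellite glia level was not used in a fit, and its part in the result was not tested. In bulk tissue, fewer cells of a type and less RNA per cell cannot be told apart.

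The remaining pathway was followed through 5 lists of 83 genes that are not members, of which 82 were tested and only Epo, the red cell hormone, was removed by the filter. One gene passed, Stc2, and 39 log2 fold changes were above and 43 below 0. By edgeR this share, 1 of 82, is close to the 0.940% over all genes. At an unadjusted p under 0.05 there were 16 of the 82 genes, beside 2722 of the 18295 tested. DESeq2 called 8 of the 82 genes and 818 of the 18295. By these last 2 measures the share was larger in the lists than over all genes, a difference that was not tested.

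Stc2, encoding the secreted glycoprotein stanniocalcin 2 and listed among the HIF targets, fell in DKO mice. It was at 4.39, 5.74, 5.64, 8.01, 3.96 and 5.76 CPM in Nf2 and at 2.09, 2.21, 2.46, 1.36, 2.21 and 3.80 CPM in DKO mice. No DKO mouse reached the lowest Nf2 mouse. The log2 fold change was -1.28 ± 0.23 (SE; adjusted p = 0.0200, edgeR's quasi-likelihood test), but the call was lost without mouse 885 (-1.25, adjusted p = 0.0538) and without mouse 918 (-1.14, adjusted p = 0.0508). It was also lost with the muscle level (adjusted p = 0.0626), the endothelial level (0.107) or the macrophage level (0.237) as a covariate.

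By edgeR none of 20 HIF target genes of glucose uptake and glycolysis passed. Their median log2 fold change was -0.02, with 9 above and 11 below 0. Of the 20, 4 had an unadjusted p under 0.05, beside 2722 of the 18295 genes tested. The largest differences were in Slc16a3, the lactate exporter (-0.49 ± 0.20, adjusted p = 0.254), Hk2, an inducible hexokinase (-0.31 ± 0.13, adjusted p = 0.286), and Pfkl, a phosphofructokinase (-0.24 ± 0.06, adjusted p = 0.0839). Pfkl was at 98.8 to 117 CPM in Nf2 and 80.3 to 97.4 CPM in DKO mice without overlap, and DESeq2 called it (adjusted p = 0.0116). DESeq2 also called Ldha, a lactate dehydrogenase (-0.23 ± 0.06, adjusted p = 0.0118, and 0.107 by edgeR). The glucose transporter Slc2a1 was at 76.8 to 94.6 CPM and 77.7 to 160 CPM.

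Among the 31 other HIF targets tested, Stc2 alone passed by edgeR, and the list median was -0.01. DESeq2 also called Bhlhe40, a transcriptional repressor (adjusted p = 0.0200), which was at 92.0 to 122 CPM in Nf2 and 76.9 to 101 CPM in DKO mice (log2 fold change -0.34 ± 0.09, adjusted p = 0.0942 by edgeR). Car12, a carbonic anhydrase, had a log2 fold change of 0.39 ± 0.24 (adjusted p = 0.487).

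By edgeR no gene passed in a list of 9 genes that held subunits of the VHL complex, the hydroxylase relative P4htm, Os9, Siah1a, Siah2 and Usp20. The list median was -0.09, with 8 of 9 below 0. Of the 9, 2 had an unadjusted p under 0.05, beside 2722 of the 18295 genes tested. The complex subunits Elob, Eloc, Cul2 and Rbx1 had log2 fold changes of -0.10, -0.02, -0.02 and -0.02. DESeq2 called Os9, a lectin of the endoplasmic reticulum (adjusted p = 0.00235), which was at 199 to 207 CPM in Nf2 and 169 to 195 CPM in DKO mice without overlap (log2 fold change -0.15 ± 0.045, adjusted p = 0.130 by edgeR). Siah2 and Siah1a, ubiquitin ligases that act on prolyl hydroxylases, had log2 fold changes of -0.26 ± 0.12 (adjusted p = 0.325) and -0.18 ± 0.13 (adjusted p = 0.569). Usp20, a deubiquitinase, had 0.16 ± 0.08 (adjusted p = 0.371). By edgeR no gene passed among 9 partners and coactivators either, and 1 had an unadjusted p under 0.05, beside the same 2722 of 18295. Arnt2, the neuronal relative of Arnt, came nearest, at 57.23 ± 9.16 CPM in Nf2 and 82.09 ± 11.7 in DKO mice (log2 fold change 0.50 ± 0.11, adjusted p = 0.0552), and DESeq2 called it (adjusted p = 0.00274). Ncoa1, a coactivator, had 0.14 ± 0.08 (adjusted p = 0.463) and Hsp90ab1, a chaperone, -0.10 ± 0.10 (adjusted p = 0.697).

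By edgeR none of 13 VEGF family ligands, receptors and angiopoietins passed, and 9 of 13 were above 0. At an unadjusted p under 0.05 there were 5 of the 13, beside 2722 of the 18295 genes tested. Vegfc, a ligand of lymphatic vessels, had a log2 fold change of -0.78 ± 0.22 (adjusted p = 0.107), Flt1, the VEGF receptor 1, 0.41 ± 0.12 (adjusted p = 0.120), and Pgf, the placental growth factor, 0.35 ± 0.13 (adjusted p = 0.208). DESeq2 called Vegfc and Flt1. Flt1, Kdr and Tek of this list were also among the 10 endothelial markers above, so both lists share these genes.

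**Figure D3:**
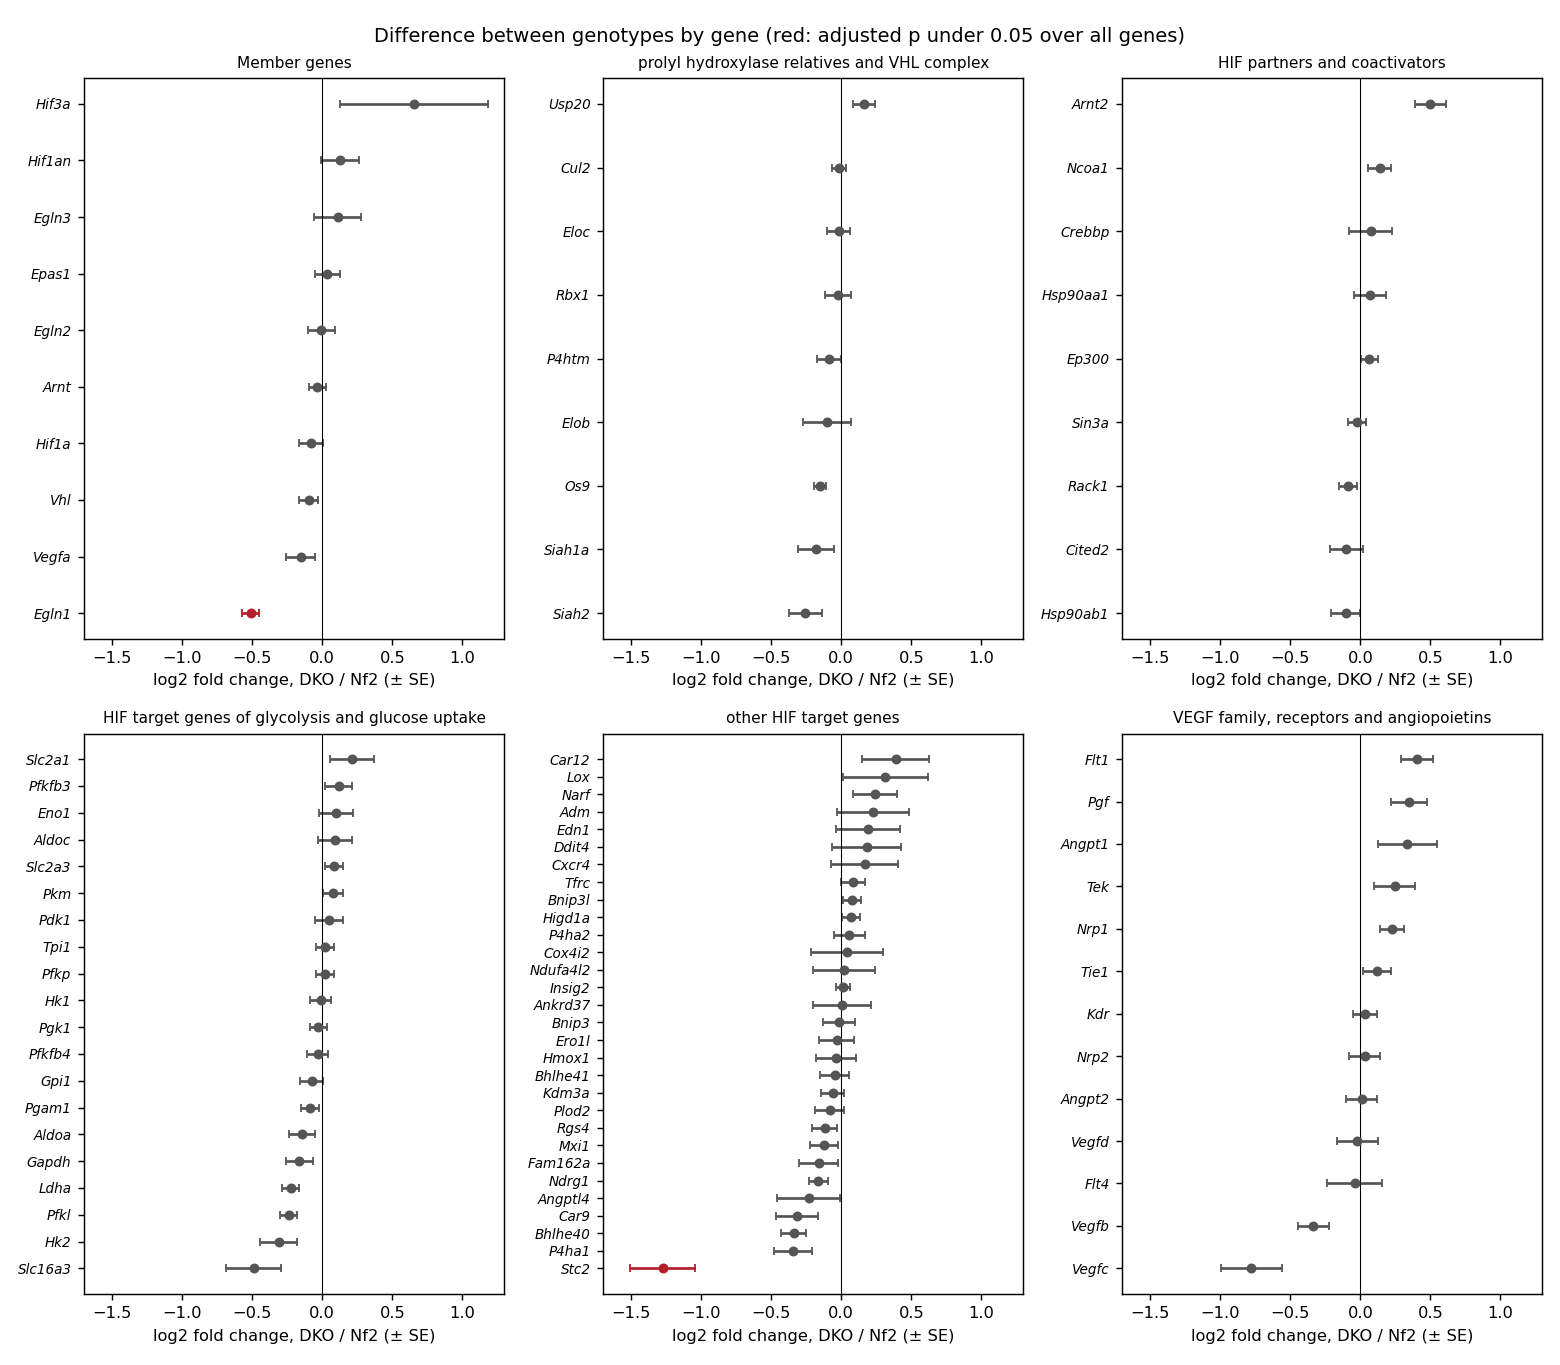
Log2 fold change of DKO over Nf2 (x axis, bars ± SE) for the 10 members and genes of 5 pathway lists, 1 point per gene (y axis: gene), red where the adjusted p was under 0.05. Egln1 at -0.51 and Stc2 at -1.28 are the red points.

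Levels per length divided CPM by the union of all annotated exons, not by the length of the transcripts expressed. Close ranks between genes are therefore uncertain, while the members spanned a wide range over the 12 mice. Egln1 had the highest mean, at 33.0 ± 6.11 CPM per kb of exon (SD, n = 12), and Egln2 followed at 29.7 ± 3.59. This order depended on genotype, with Egln1 at 38.6 ± 1.75 and Egln2 at 29.6 ± 3.92 in Nf2 mice (n = 6), and 27.4 ± 2.10 and 29.9 ± 3.60 in DKO mice. Per length, Egln1 exceeded Egln2 in 6 of 6 Nf2 mice and in 1 of 6 DKO mice, mouse 887. The order in DKO mice also depended on the exon lengths used, 3594 bases for Egln1 and 2800 for Egln2. In CPM, without the length, Egln1 was above Egln2 in every mouse of both genotypes. Hif1a (19.1 ± 2.14) and Epas1 (17.9 ± 1.99) came next, then Vegfa (13.9 ± 1.85), Hif1an (11.1 ± 1.93), Vhl (8.28 ± 0.591) and Arnt (7.64 ± 0.480). Egln3 (2.89 ± 0.624) and Hif3a (1.33 ± 1.37) were lowest. Each neighbouring pair in this order overlapped in range except Arnt and Egln3.

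The sexes were compared with genotype as a covariate, a contrast the choice of members did not use, by label and so with mouse 702 among the 6 mice labelled male. Of all genes tested 3 (0.0164%) passed, none of them a member, and without mouse 702, whose library went against its label, 10 passed. Hif3a had a male minus female log2 difference of -1.26 ± 0.44 (SE; unadjusted p = 0.0129, adjusted p = 1.0 by edgeR), and mouse 886 was labelled female. Without mouse 702 it was -1.24 ± 0.47 (unadjusted p = 0.0226, adjusted p = 1.0). The other 9 members lay between -0.19 and 0.11 with all mice and between -0.17 and 0.12 without mouse 702. For the interaction of genotype and sex 2 genes (0.0109%) passed, again no member. Vegfa had an interaction of -0.34 ± 0.17 (adjusted p = 0.920), and without mouse 702 it was -0.43 ± 0.17 (unadjusted p = 0.0316, adjusted p = 0.772). Within a sex, the Egln1 log2 fold change was -0.51 in mice labelled female and -0.53 in mice labelled male, each with 3 against 3 mice.

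Members were also compared with each other between mice of the same genotype. Over 45 pairs, 6 had a Pearson r past an adjusted permutation p of 0.05 and none had a Spearman rho past it. Egln2 and Hif1an had r = 0.899 (permutation p = 0.00573, adjusted 0.0430) and rho = 0.622 (permutation p = 0.0281, adjusted 0.158) over 12 mice. Without mice 649 and 887, the pair farthest from the median of Egln2, r was 0.233, so this relation rests on those 2 mice. Egln2 with Egln3 went from 0.815 to 0.400 and Egln2 with Arnt from 0.718 to 0.345 without them. Egln3 with Hif1a went from 0.848 to 0.609 and Arnt with Hif1an from 0.756 to 0.411 without the same mice. Hif1an and Vegfa had r = -0.770 (permutation p = 0.00128, adjusted 0.0393) and rho = -0.748 (permutation p = 0.00509, adjusted 0.115), and r = -0.718 without 649 and 887. Egln1 was in none of the 6 pairs, and its r with the other members ran from -0.588 with Epas1 to 0.414 with Vhl. Without mice 918 and 915, the pair farthest from the median of Egln1, its r ran from -0.949 with Egln3 to 0.534 with Vegfa.

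**Figure D4:**
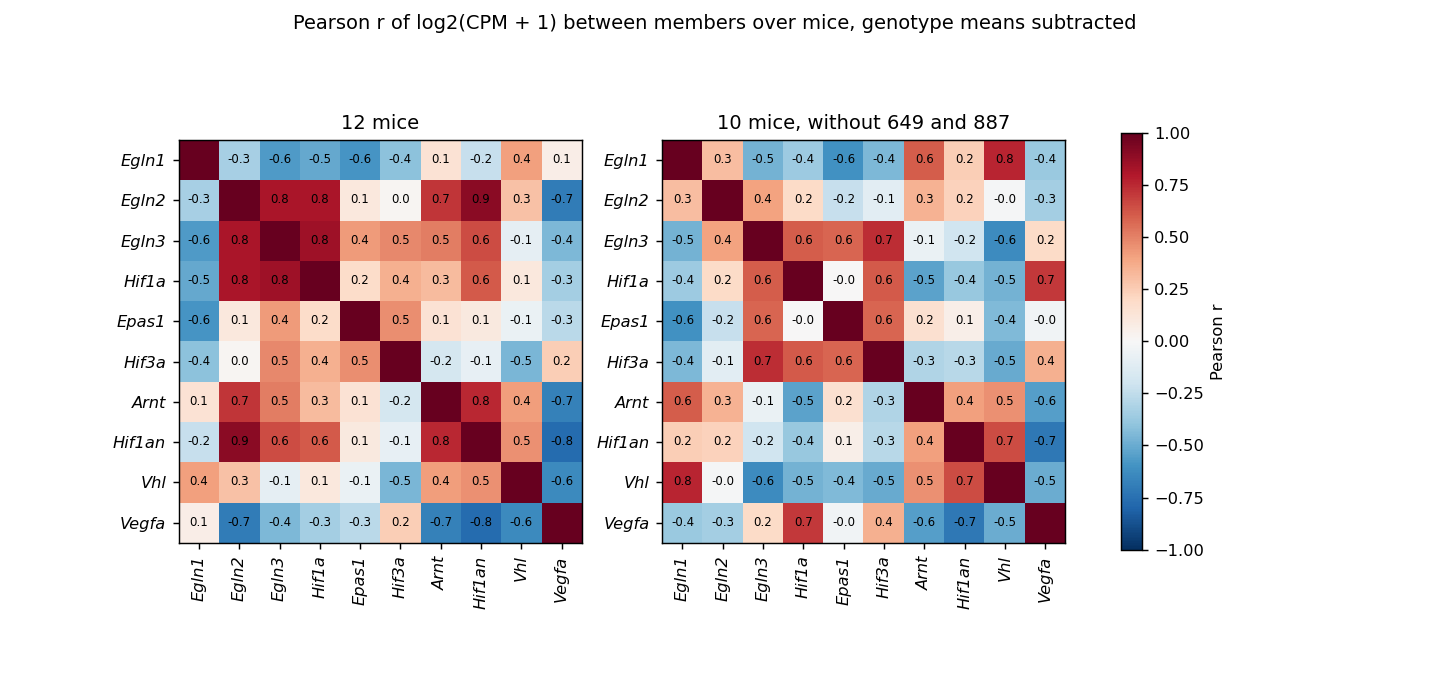
Pearson r between members (rows and columns) over mice after subtracting genotype means, on a colour scale from -1 (blue) to 1 (red), with 12 mice at left and 10 at right. The Egln2 and Hif1an cell goes from 0.899 to 0.233 when mice 649 and 887 are left out.

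By the same measure, over 12 mice and 15862 genes with a mean of at least 1 CPM, the genes most like Egln1 were Prrg1 (r = 0.947), Casp12 (0.929), Yap1 (0.908), Lemd2 (0.906) and Ggta1 (0.900). Ptk2, the deleted gene of the DKO mice, was sixth at 0.890. Yap1, a transcriptional coactivator restrained by merlin, the Nf2 product, was at 103.7 ± 9.94 CPM in Nf2 and 82.09 ± 9.02 in DKO mice (log2 fold change -0.36, adjusted p = 0.0733). Casp12, a caspase of the endoplasmic reticulum, was at 80.25 ± 9.45 and 59.38 ± 10.6 CPM (log2 fold change -0.46, adjusted p = 0.0965). The genotype means had been subtracted, so these values are of variation within genotypes.

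The genes around Egln1 were read in the same fit. Within 2 Mb on either side, a window chosen after seeing the data, 66 other genes were tested, 30 lower and 36 higher in DKO mice, with a median log2 fold change of 0.01. None passed by edgeR (smallest adjusted p = 0.101), and DESeq2 called 1, 2810455O05Rik, beside 818 over all genes. Of the 66, 7 had an unadjusted p under 0.05, beside 2722 of the 18295 genes tested. By midpoint, the nearest were Sprtn (-0.03 ± 0.07), Gm45709 (0.18 ± 0.25) and Exoc8 (0.15 ± 0.12). Acta1, a skeletal muscle actin in the same window, had -2.27 ± 0.83 (adjusted p = 0.206).

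**Figure D5:**
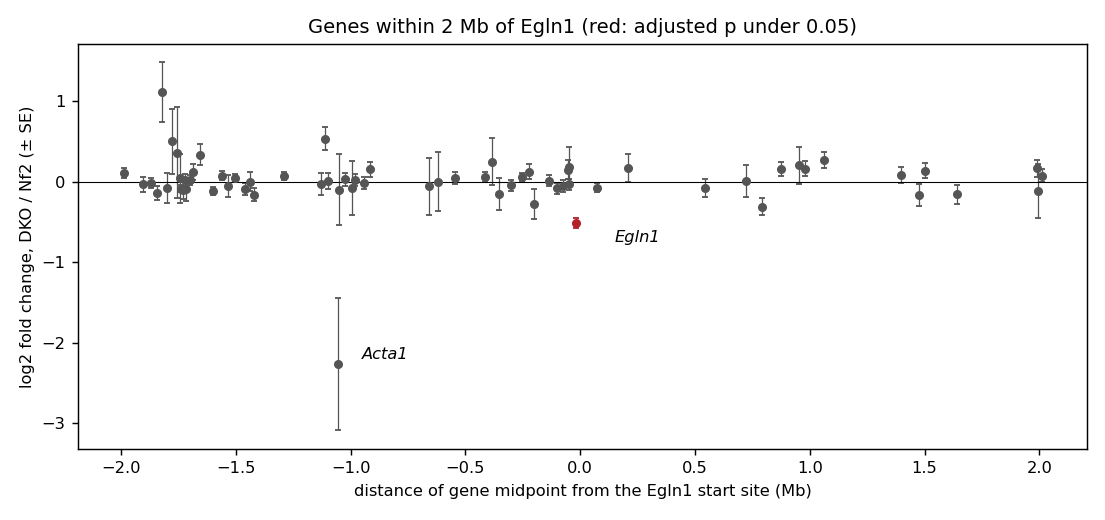
Log2 fold change of DKO over Nf2 (y axis, bars ± SE) for Egln1 and 66 other tested genes by distance of the gene midpoint from the Egln1 start (x axis, Mb, negative towards lower coordinates); red marks an adjusted p under 0.05. Egln1 at -0.51 is the red point, and Acta1 at -2.27 has a wide error.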

How the data were processed

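The authors deposited raw counts, whole-number reads per Ensembl gene and mouse, from poly(A) libraries of a commercial provider. The submitters' processing notes name Trimmomatic 0.36, STAR 2.5.2b, featureCounts, Subread 1.5.2 and GRCm38; strand and annotation release are not given in the sources used here, so overlapping and antisense genes could share reads. The study's methods state log2(CPM + 4), and its legends give unpaired tests of single genes; no model across all genes was taken from it.

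The main test was that of edgeR 4.0.16 in R 4.3.3 (filterByExpr by genotype, TMM factors of 0.977 to 1.02, quasi-likelihood F test on 12 mice without covariates, Benjamini-Hochberg over 18295 genes, threshold 0.05), with DESeq2 1.42.0 and limma 3.58.1 as alternatives. Fits were tested on simulated data. Replicates are separate mice. CPM used library totals, and levels per length used exon unions of GENCODE M21, which held 99.3% of the genes. Marker sums were compared over 924 splits of the mice (smallest p 0.00216). Correlations used log2(CPM + 1) with 100000 permutations, whose p-values were added to a planned description.

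Members and lists were chosen with earlier results of these data known. The text names all members, every listed gene past the threshold up to 6, otherwise the largest differences at a mean of at least 1 CPM until 3 were named, and the 5 genes most like the member with the largest difference relative to its error. Other named genes were chosen after their values were seen. A listed gene that the rule names is not reported here, although the counts over its list include it.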

Additional observations from a re-analysis of the deposited data

Results flagged for a closer look

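Over 40 groups of 6 mice (10 members and 10 marker lists in each genotype), 6 held a mouse far from the others, where chance gives about 2. The 6 groups are not independent, since mouse 649 or 887 is the distant mouse in 5 of them. Egln2 was at 60.7 CPM in Nf2 mouse 649 (nearest mouse 85.5 CPM) and at 63.7 CPM in DKO mouse 887 (nearest 84.3 CPM). Hif1an was at 57.0 CPM in DKO mouse 887 (nearest 75.7 CPM). The summed erythroid markers were at 60.7 CPM in DKO mouse 887 (nearest 378 CPM), and the summed satellite glia markers at 5780 CPM in Nf2 mouse 649 (nearest 4200 CPM). Hif3a was at 37.0 CPM in DKO mouse 886 (nearest 8.80 CPM).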

How the results depend on the processing

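The log2 fold change of Egln1 ran from -0.54 to -0.43 over the alternatives, a description of a contrast its choice had used. With the macrophage level as a covariate (chosen after seeing the data), in mice labelled female only and in mice labelled male only, the count of members past the threshold was 0 in place of 1. Of the 82 pathway genes, 8 passed by DESeq2, 2 with a filter of 1 CPM in 6 mice, with sex as a covariate and without mice 649 and 887 (chosen after seeing the data), and 0 with the muscle, endothelial or macrophage level as a covariate and in either sex alone; leaving out each mouse gave 0 to 2. In these 12 fits Stc2 passed in 10, Arnt2 in 2 and Vegfc in 1. Over all genes 818 passed by DESeq2, 102 with the muscle, 24 with the endothelial and 6 with the macrophage covariate, 314 without mice 649 and 887, 57 in mice labelled female and 2 in mice labelled male, mouse 702 included; leaving out each mouse gave 81 to 217. The cause was not tested; the fits within a sex hold 6 mice. With the endothelial covariate the sign turned for the members Hif3a (-0.60), Egln3 (-0.29), Epas1 (-0.10) and Hif1an (-0.06), and without mouse 886 for Hif3a (-0.265), Egln3 (-0.012) and Epas1 (-0.015). Epas1 also turned without mouse 914 (-0.021), Arnt in mice labelled male (0.040) and Vhl with the macrophage covariate (0.004), while Egln2, at -0.007, took either sign. Among other genes and lists, directions turned for Siah1a (0.008) in mice labelled female, Usp20 (-0.001) with the endothelial covariate, Hsp90ab1 with the endothelial covariate (0.064) and in mice labelled female (0.048), Car12 (-0.094) in mice labelled female, and for the fibroblast (-0.011) and Schwann cell (0.000) markers as a mean of logs, none of them past the threshold. No paired analysis was possible because the mouse numbers are not shared between genotypes.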

Other observations

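The other marker lists did not pass the exact permutation test between genotypes. Erythroid markers, 7 of 7 with higher mean levels in DKO mice, ranged from 37.4 to 577 CPM in Nf2 and from 60.7 to 805 CPM in DKO mice (exact p = 0.262, adjusted 0.524). The adjusted p was 0.696 for pericytes, 0.552 for fibroblasts, 0.719 for adipocytes and for sensory neurons, and 0.805 for Schwann cells, all by the exact permutation test. Of the adipocyte markers, Lep was at 0 in at least 1 mouse.

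The genes most like Hif3a over 12 mice, after subtracting genotype means, were Mertk (r = 0.952), Map3k6 (0.930), Sult1a1 (0.927), Zbtb16 (0.924) and Fth1 (0.910), a list drawn after the values of Hif3a were seen. Mouse 886, the highest for Hif3a, weighs on each of these values.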
